A study of Mus musculus with 12 samples.

Results

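Wnt signalling genes were followed across adult mouse forebrain with and without loss of Notch and with and without exposure to valproic acid before birth. The set comprised 51 protein-coding genes of the 56748 genes in the count table, chosen by their symbols: those named as numbered Wnt, Fzd, Dvl, Dkk or Sfrp genes (ligands, Frizzled receptors, Dishevelled proteins, Dickkopf inhibitors and secreted Frizzled-related proteins), with Lrp5, Lrp6, Ctnnb1, Axin1, Axin2, Apc, Gsk3b, Lef1, Tcf7, Tcf7l1 and Tcf7l2. Of these, 46 had enough counts to be tested. RNA sequencing had been carried out on 12 brain libraries, described by the series as adult forebrain, in 4 groups of 3. The groups were wildtype (WT), a Notch conditional knockout (htr, genotype label htr3a Notch KO), wildtype given valproic acid (VPA) prenatally (WT_V) and the knockout given valproic acid prenatally (htr_V). VPA is an antiepileptic drug that inhibits histone deacetylases. No source used here gives the deleted Notch gene, the Cre or other driver, strain, sex, exact age, VPA dose or day of exposure, and no vehicle treatment is named for the unexposed groups. Nor do the labels say that each library came from its own animal, so every p-value here measures only the spread between libraries.

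Wnt ligands are secreted lipid-modified glycoproteins that bind Frizzled receptors together with the co-receptors Lrp5 and Lrp6. Dishevelled proteins relay the signal and restrain the destruction complex of Axin, Apc and glycogen synthase kinase, so that β-catenin (Ctnnb1) accumulates and acts in the nucleus with the TCF/LEF factors. Dickkopf proteins and secreted Frizzled-related proteins work outside the cell and mostly oppose the ligands. In brain the pathway is known for its roles in patterning, neurogenesis, synapse formation and the formation of the blood-brain barrier.

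Total counts ran from 16887885 to 24944681 per library, and levels are given in CPM, counts relative to the scaled total of their library. Forebrain markers were detected: none of the 10 cortical or 12 striatal markers was at 0 in every library. This does not show that the libraries held equal shares of each region. Summed striatal markers stood at 1980 to 2080 CPM in WT, 1510 to 2280 in htr, 1260 to 1420 in WT_V and 1370 to 1660 in htr_V. Of the 4 Notch receptor genes and Rbpj, 0 of 5 differed between knockout and wildtype by edgeR's test, which in whole tissue does not check a deletion in few cells. In WT_V replicate 3 and htr_V replicate 3 the X-inactivation RNA Xist had 12 and 6 counts, against 5919 to 10767 elsewhere, so both libraries that stood apart in this way were exposed ones. The mitochondrial genome held 12.2% to 18.6% of counts, the most in htr_V replicate 1.

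Levels of the Wnt genes spanned more than 4 orders of magnitude when compared per kilobase of annotated exon, averaged over all 12 libraries. Dkk3, a divergent Dickkopf, was the most abundant at 83.9 CPM per kb (range 77.9 to 90.1), and β-catenin followed at 63.9 CPM per kb (59.9 to 67.4). These ranges did not overlap, though ranges per kb cover the spread between libraries and not the choice of exon length. Apc, the destruction complex scaffold, stood at 29.6 CPM per kb (26.0 to 38.5) and Dvl1 at 24.4 CPM per kb (19.5 to 28.3), which overlapped. Gsk3b was next at 11.5 CPM per kb.

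Among ligands, Wnt7b led with 8.24 CPM per kb (7.01 to 9.39), ahead of Wnt7a at 5.04 (3.95 to 6.03), Wnt4 at 4.82 (4.03 to 5.6) and Wnt9a at 4.11 (2.94 to 5.05). The last 3 overlapped each other in range. Wnt7a and Wnt7b are the ligands that direct brain vessels to form a barrier. Among Frizzled receptors, Fzd2 had the highest mean at 5.91 CPM per kb (4.29 to 7.35) and Fzd3 followed at 4.33 (3.77 to 4.85), again with overlap. Fzd5 was the lowest receptor at 0.315 CPM per kb. The TCF/LEF factors were scarce in this bulk tissue: Tcf7 was at 1.41, Tcf7l1 at 1.07, Tcf7l2 at 0.811 and Lef1 at 0.424 CPM per kb.

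The 5 genes that could not be tested were the ligands Wnt3a, Wnt8a and Wnt9b and the inhibitors Dkk1 and Dkk4. Dkk4 had 1 count over all libraries, Dkk1 had 2, Wnt8a 7, Wnt3a 9 and Wnt9b 56. Dkk1 was at 0 in 10 of 12 libraries and Dkk4 in 11 of 12, where a count of 0 allows up to 3 counts, or 0.121 to 0.179 CPM depending on the library. Such limits cover counting error only. Wnt9b was counted in every library, at no more than 9 counts.

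**Figure D1:**
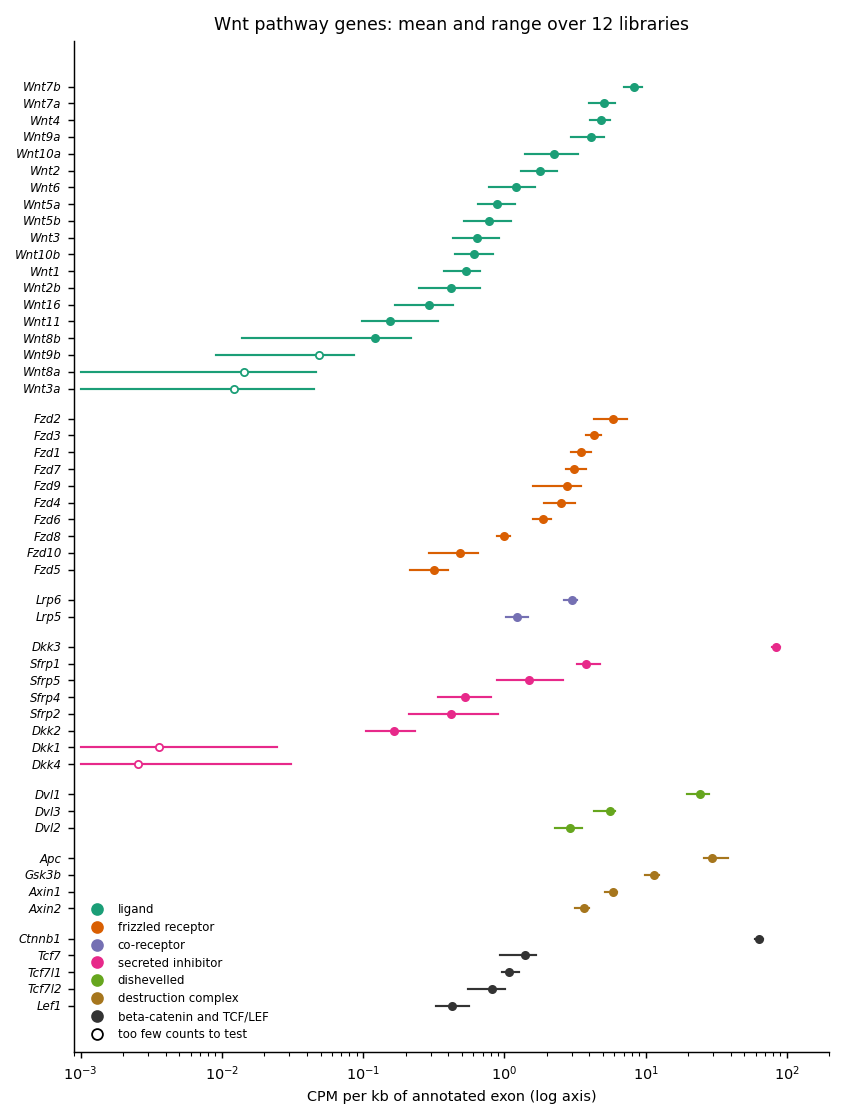
Mean level of each Wnt gene in CPM per kilobase of annotated exon on a log axis, with lines from the lowest to the highest of the 12 libraries; lines that reach the left edge include libraries at 0, and open points are the 5 genes not tested. Dkk3 and Ctnnb1 are the highest, at 83.9 and 63.9 CPM per kb, and Dkk1 and Dkk4 the lowest.

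Whether prenatal VPA altered Wnt genes in the adult forebrain was asked first over both genotypes, as the average of the exposed-minus-unexposed difference in wildtype and in knockout. Fzd4, Dvl2 and Wnt2b rose and no Wnt gene fell: 3 of 46 genes (6.52%) passed edgeR's quasi-likelihood test at a Benjamini-Hochberg adjusted p under 0.05. Over all 17995 tested genes 5.99% passed, 2.12% higher and 3.87% lower, so the share of Wnt genes called was near that of all genes. The rises were moderate, 1.29-fold, 1.19-fold and 1.61-fold. An unadjusted p under 0.05 was reached by 12 of the 46 Wnt genes, 26.1%, against 21.8% of all genes.

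The log2 fold change was above 0 for 29 of 46 Wnt genes and for 52.4% of all tested genes, with medians of 0.09 and 0.01. The Wnt median was 0.04 without WT_V replicate 3, 0.06 without htr replicate 1, 0.05 without both libraries lacking Xist and 0.05 with a sex term. The count above 0 was 25 of 46 without htr_V replicate 1 and 27 without WT_V replicate 1, and as high as 32 without WT_V replicate 2. Markers of some glia were also mostly above 0 with VPA: 11 of 11 astrocyte markers (median 0.12, 0 past the test) and 9 of 10 microglia markers (median 0.13, 1 past it). Oligodendrocyte markers went the other way, with 1 of 10 above 0 (median -0.06, 1 past the test and lower). The part of glial content in the levels of the Wnt genes was not tested. All 3 Dishevelled genes, both co-receptors and 8 of 10 Frizzled genes were above 0, with medians of 0.18, 0.11 and 0.12 on the log2 scale. Of the destruction complex 3 of 4 were above 0. Ligands were divided, 9 of 16 above 0, and 2 of 6 secreted inhibitors and 2 of 5 nuclear genes were above 0.

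**Figure D2:**
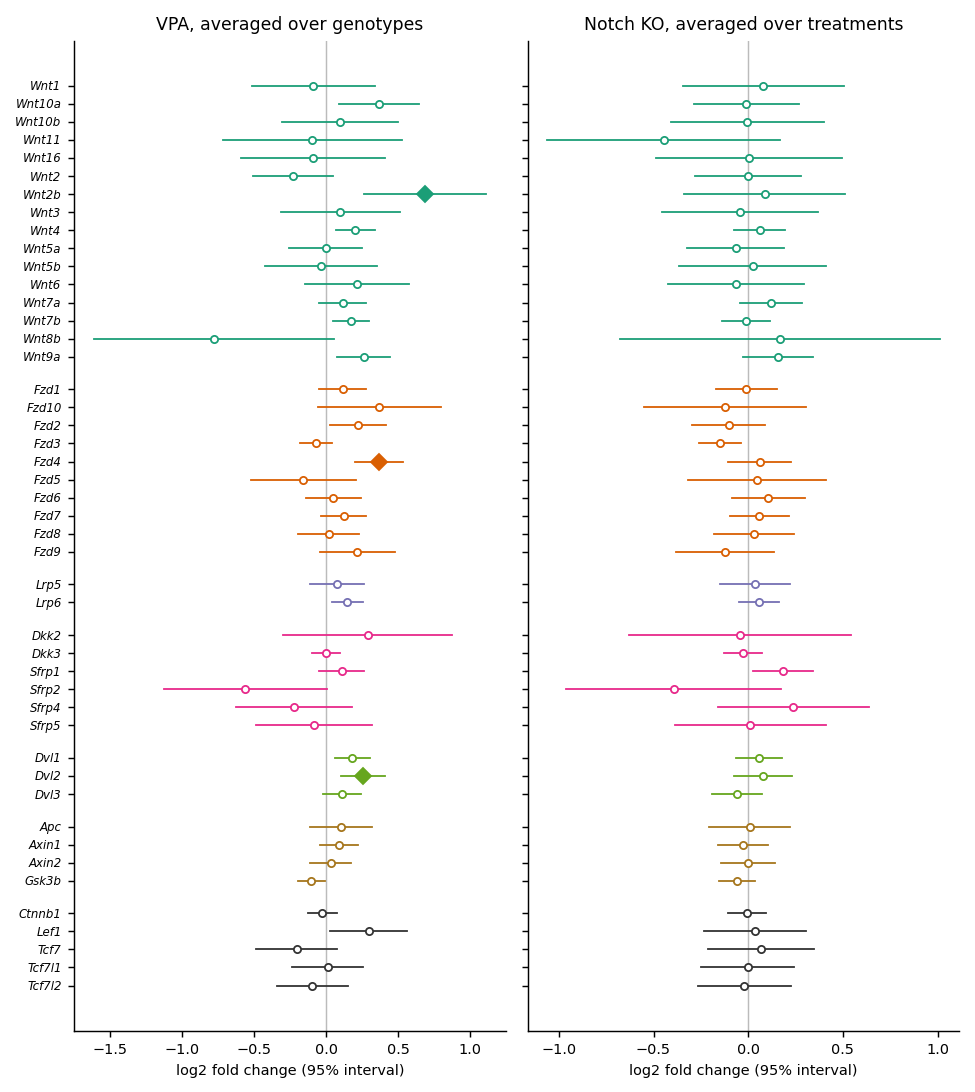
Log2 fold change of each of the 46 tested Wnt genes with its 95% interval, for VPA averaged over genotypes (left) and for knockout averaged over treatments (right); filled diamonds passed edgeR's test. Fzd4, Dvl2 and Wnt2b are the filled genes on the left, and none is filled on the right.

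Fzd4 encodes the receptor for norrin and several Wnts that is known for its part in retinal and brain vessels. Fzd4 (ENSMUSG00000049791) stood at 15.1, 15.2 and 12.9 CPM in the wildtype libraries and at 14.7, 15.0 and 15.2 CPM in the knockout libraries. After VPA it stood at 19.3, 15.3 and 21.0 CPM in wildtype and at 21.3, 18.7 and 18.1 CPM in knockout. Every exposed library was above every unexposed library, though WT_V replicate 2 lay just above the highest unexposed one. Averaged over genotypes the log2 fold change was 0.37 ± 0.08 (SE; 95% interval 0.20 to 0.53), with an edgeR adjusted p of 0.00985. Fzd4 was the 1 Wnt gene whose exposed libraries were all above the unexposed, as were 1.07% of all tested genes. None of the Wnt genes had all exposed libraries below, as had 2.07% of all genes. The rise was 0.34 with an adjusted p of 0.0463 without both libraries lacking Xist, and 0.34 with an adjusted p of 0.0603 when a sex term from Xist was added to the edgeR model.

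The sequence just before the start of Fzd4 is shown because Fzd4 carries the firmest difference among the Wnt genes. It covers 200 bases, from 250 to 51 bases before the RefSeq start on the plus strand of GRCm38.p6, chr7:89404116-89404315, written 5′ to 3′ with GC boxes in capitals.
Fzd4: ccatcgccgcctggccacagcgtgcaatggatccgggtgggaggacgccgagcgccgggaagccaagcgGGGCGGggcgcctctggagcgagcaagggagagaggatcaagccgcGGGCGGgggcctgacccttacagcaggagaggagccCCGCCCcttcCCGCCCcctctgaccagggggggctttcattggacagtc
The window held 4 matches to the GC box (GGGCGG on either strand), and no match to the E-box CACGTG or to the TCF/LEF core CTTTGA on either strand. At least 1 GC box was found in 24.6% of the 32851 RefSeq mouse windows of this length, and in 29 of the 44 windows (65.9%) of the 35 Wnt genes matched in the table. The TCF/LEF core was found in 11.8% of all windows and in 5 of the 44 (11.4%). The E-box was found in 4.34% of all windows and in 4 of the 44 (9.09%). GC made up 71.5% of the Fzd4 window and a median of 51.5% of all windows, and a GC-rich window holds such boxes more readily.

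Endothelial cells are a known site of Fzd4. None of the 12 endothelial markers passed the averaged VPA test, 8 were above 0, and their median log2 fold change was 0.04. With VPA in wildtype 10 of 12 were above 0 (median 0.12), and in knockout 4 of 12 (median -0.07). Their summed level was 266 to 313 CPM in WT, 280 to 316 in htr, 293 to 327 in WT_V and 266 to 313 in htr_V, groups that overlapped, and no endothelial marker was at 0 in every library. Meningeal fibroblast markers moved more: 4 of 14 rose in the averaged test, against 2.12% of all tested genes. Their summed level was 143 to 175 CPM in WT, 135 to 167 in htr, 144 to 218 in WT_V and 180 to 217 in htr_V. With VPA in wildtype 10 of 14 were above 0 (median 0.11), and in knockout 13 of 14 (median 0.32). In whole tissue, a change in the number of cells of a type and a change of RNA per cell cannot be told apart. Whether meningeal content has a part in the level of Fzd4 was not tested.

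**Figure D3:**
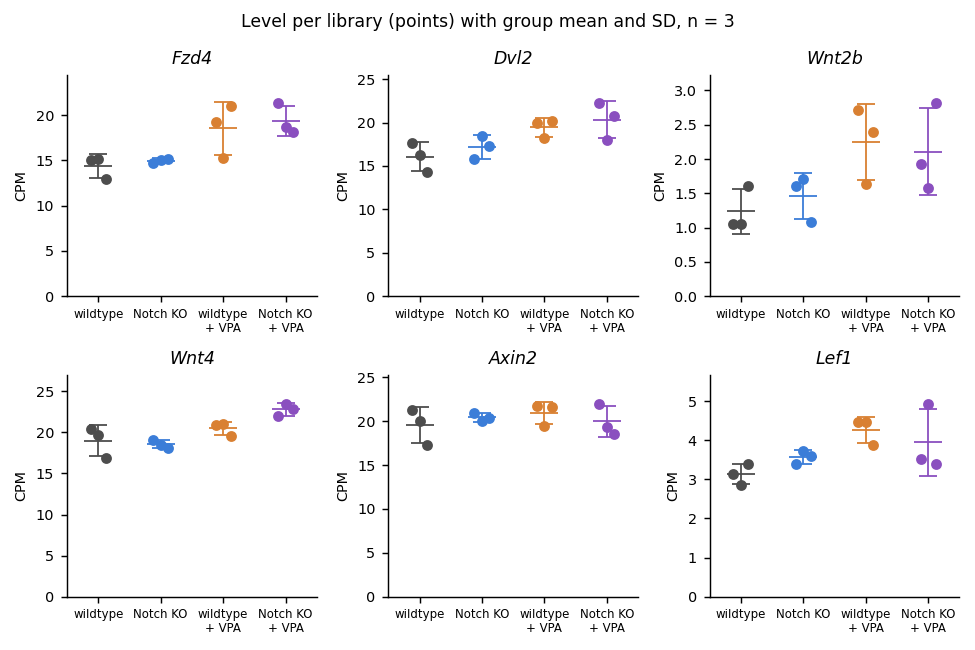
CPM of 6 Wnt genes in each library (points) with the group mean and SD (bars), n = 3 per group. All exposed libraries lie above the unexposed for Fzd4, while the groups overlap for Dvl2, Wnt2b, Wnt4 and Lef1 when both genotypes are combined, and Axin2 stays between 17.3 and 22.0 CPM.

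Among the ligands, Wnt2b (ENSMUSG00000027840), a canonical Wnt, rose on average and was low in every library. It stood at 1.05, 1.05 and 1.61 CPM in WT, 1.60, 1.71 and 1.08 in htr, 2.72, 1.64 and 2.40 in WT_V and 1.93, 1.58 and 2.81 in htr_V. Exposed and unexposed libraries overlapped, since htr_V replicate 2 was below 3 unexposed libraries. On average the log2 fold change was 0.69 ± 0.21 (SE), 1.61-fold, with an edgeR adjusted p of 0.0476. Without both libraries lacking Xist it was 0.52 with an adjusted p of 0.259, and it passed in 4 of the 12 fits that left out 1 library (adjusted p 0.0316 to 0.155). Choroid plexus markers were also above 0 on average, 16 of 16 with 0 past the test. They summed to 1370 to 2120 CPM in WT, 1890 to 2040 in htr, 1390 to 2730 in WT_V and 2700 to 3240 in htr_V. With VPA in wildtype 8 of 16 of these markers were above 0 (median 0.01), and in knockout 16 of 16 (median 0.62). For Wnt2b the VPA effect in knockout minus that in wildtype was -0.34 ± 0.41 (SE; edgeR adjusted p = 0.958). The part of choroid plexus or meningeal content in the level of Wnt2b was not tested.

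Wnt4, a ligand that can act with or without β-catenin, came next among the ligands. It stood at 20.4, 19.7 and 16.9 CPM in WT, 19.1, 18.5 and 18.1 in htr, 20.9, 21.0 and 19.6 in WT_V and 22.0, 23.5 and 22.9 in htr_V. The htr_V libraries were all above the htr libraries, while WT_V and WT overlapped. Its averaged log2 fold change of 0.20 ± 0.06 (SE) did not pass (edgeR adjusted p = 0.0615). Wnt9a (0.26), Wnt7b (0.17) and Wnt10a (0.37), singled out after their values were seen, had unadjusted p-values under 0.05 and adjusted p-values of 0.0835, 0.0945 and 0.104. The 11 other tested ligands had adjusted p-values from 0.266 upward, with log2 fold changes from -0.78 for Wnt8b to 0.21 for Wnt6.

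The co-receptors Lrp5 and Lrp6 pair with Frizzled at the membrane. Lrp6 stood at 39.4, 37.7 and 36.2 CPM in WT, 38.9, 37.8 and 42.7 in htr, 43.3, 42.1 and 41.8 in WT_V and 44.7, 44.4 and 41.4 in htr_V. Only htr replicate 3 of the unexposed libraries reached the exposed range. Lrp6 had an averaged log2 fold change of 0.15 ± 0.05 (SE; edgeR adjusted p = 0.0903). Lrp5 stood at 11.4 to 11.8 CPM in WT, at no more than 12.6 in htr, at 10.6 to 13.9 in WT_V and at 11.5 to 14.3 in htr_V, which overlapped. Its log2 fold change was 0.07 ± 0.09 (adjusted p = 0.696). Its 2 highest values, 13.9 and 14.3 CPM, were those of the libraries lacking Xist.

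Of the other Frizzled receptors, 0 of 9 passed the averaged VPA test. Their log2 fold changes ran from -0.16 for Fzd5 to 0.37 for Fzd10, and Fzd2 (0.22, adjusted p = 0.166) was the 1 with an unadjusted p under 0.05. Fzd10 was as far above 0 as Fzd4 on the log2 scale, but at 0.957 to 2.11 CPM and with an SE of 0.21 against 0.08 for Fzd4.

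Dishevelled genes encode the cytoplasmic scaffolds that join Frizzled to the destruction complex. Dvl2 (ENSMUSG00000020888) stood at 17.6, 16.3 and 14.3 CPM in WT, 15.8, 18.5 and 17.3 in htr, 19.9, 18.2 and 20.2 in WT_V and 22.2, 18.0 and 20.7 in htr_V. The groups touched only through htr replicate 2 at 18.5 CPM, above the lowest exposed library of each genotype. Over both genotypes the log2 fold change was 0.25 ± 0.07 (SE), 1.19-fold, with an edgeR adjusted p of 0.0416. Without both libraries lacking Xist it was 0.23 with an adjusted p of 0.169, and it passed in 4 of the 12 fits that left out 1 library (adjusted p 0.0269 to 0.127). Dvl1, the most abundant Dishevelled gene, stood at 120, 127 and 97.3 CPM in WT, 114, 117 and 110 in htr, 115, 121 and 137 in WT_V and 141, 131 and 133 in htr_V. Only in knockout were its exposed libraries all above the unexposed ones. Its averaged log2 fold change was 0.18 ± 0.06 (adjusted p = 0.0703), and that of Dvl3 was 0.11 ± 0.06 (adjusted p = 0.338).

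Dvl2 overlaps Acadvl, an enzyme of fatty acid oxidation, on the opposite strand of the genome. Acadvl averaged 29.1 CPM against 18.3 CPM for Dvl2, and its averaged log2 fold change with VPA was 0.15 ± 0.06 (edgeR adjusted p = 0.182). The strand setting of the authors' counting is not given, so reads of the pair may not have been told apart and the level of Dvl2 is uncertain to that extent. Among the other Wnt genes with levels exceeded by an overlapping gene, Wnt5b lies opposite Fbxl14 (2.06 against 25.5 CPM).

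The 200 bases before Dvl2, at the same distances from its RefSeq start on the plus strand of GRCm38.p6, chr11:70000342-70000541, are shown for comparison with Fzd4, with GC boxes and E-boxes in capitals.
Dvl2: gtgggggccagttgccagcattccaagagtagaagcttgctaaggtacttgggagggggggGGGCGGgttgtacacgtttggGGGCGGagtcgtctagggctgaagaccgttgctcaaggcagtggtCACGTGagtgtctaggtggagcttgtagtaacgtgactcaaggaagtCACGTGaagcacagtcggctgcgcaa
This window held 2 GC boxes and 2 E-boxes and, like that of Fzd4, no match to the TCF/LEF core on either strand. Its GC share was 58.0%. A match describes letters in the window and not a bound site.

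Secreted inhibitors showed no call in the averaged VPA comparison (0 of 6). Dkk3 stood at 262 to 303 CPM in the unexposed and 262 to 299 CPM in the exposed libraries, with a log2 fold change of 0.00 ± 0.05 (edgeR adjusted p = 0.992). Sfrp2 was the farthest from 0 at -0.56 ± 0.27 (adjusted p = 0.235), at 0.455 to 1.96 CPM over all libraries. Sfrp1 was at 0.11 (adjusted p = 0.445), Sfrp4 at -0.22 (0.556), Sfrp5 at -0.08 (0.854) and Dkk2 at 0.29 (0.612).

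Axin2, a negative regulator of the pathway that is also its best known transcriptional target, did not pass. Axin2 stood at 21.3, 20.0 and 17.3 CPM in WT, 21.0, 20.0 and 20.4 in htr, 21.7, 19.5 and 21.6 in WT_V and 22.0, 19.4 and 18.6 in htr_V. The 4 groups overlapped. Its averaged log2 fold change with VPA was 0.03 ± 0.07 (SE; edgeR adjusted p = 0.836), and the 95% interval ran from -0.11 to 0.17. Of the rest of the destruction complex, Gsk3b was at -0.10 ± 0.05 (adjusted p = 0.182), Axin1 at 0.09 ± 0.06 (0.458) and Apc at 0.10 ± 0.10 (0.615). Apc lay at 419 to 502 CPM in 10 libraries and was highest, at 576 and 621 CPM, in WT_V replicate 3 and htr_V replicate 1.

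β-Catenin, which carries the signal into the nucleus, stood at 340, 331 and 350 CPM in WT, 329, 320 and 340 in htr, 311, 326 and 340 in WT_V and 347, 311 and 337 in htr_V. The groups overlapped, and the log2 fold change of Ctnnb1 was -0.03 ± 0.05 (SE; edgeR adjusted p = 0.801). Its whole range over 12 libraries was 0.17 on the log2 scale, the narrowest of the 46 Wnt genes.

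Lef1, a partner of β-catenin on DNA, stood at 3.14, 2.87 and 3.39 CPM in WT, 3.39, 3.74 and 3.59 in htr, 4.46, 4.46 and 3.88 in WT_V and 3.52, 4.94 and 3.39 in htr_V. In wildtype the exposed libraries were all above the unexposed, and in knockout the groups overlapped. The averaged log2 fold change was 0.29 ± 0.13 (SE; edgeR adjusted p = 0.184). Tcf7 stood at 3.53 to 4.36 CPM in the unexposed and 2.45 to 4.41 CPM in the exposed libraries (-0.20 ± 0.14, adjusted p = 0.411). Tcf7l1 stood at 3.75 to 4.95 and 3.93 to 4.54 CPM (0.01 ± 0.12, adjusted p = 0.978).

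Tcf7l2, the TCF factor that is abundant in thalamus, stood at 4.81 to 8.83 CPM in the unexposed and 6.60 to 7.24 CPM in the exposed libraries (-0.10 ± 0.12, edgeR adjusted p = 0.702). The summed level of 12 thalamic markers was 129 to 208 CPM in WT, 145 to 154 in htr, 141 to 144 in WT_V and 137 to 142 in htr_V, and 0 of the 11 tested passed. How far tissue content set the level of Tcf7l2 was not tested.

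Within wildtype alone, VPA gave no call among the Wnt genes (0 of 46, against 0.895% of all tested genes). An unadjusted p under 0.05 was reached by 7 Wnt genes, or 15.2%, against 14.2% of all genes. Fzd4 had the smallest adjusted p (0.36 ± 0.11 on the log2 scale, edgeR adjusted p = 0.113), followed by Wnt2b (0.86 ± 0.29, adjusted p = 0.152), Dvl2 (0.27 ± 0.10, adjusted p = 0.217) and Lef1 (0.44 ± 0.18, adjusted p = 0.252). The 3 exposed libraries were all above the 3 unexposed for 7 Wnt genes, or 15.2% (9.84% of all genes), and all below for 2, or 4.35% (10.9%). The 7 were Fzd4, Wnt2b, Dvl2, Lef1, Lrp6, Fzd10 and Dvl3, and the 2 were Sfrp2 and Tcf7.

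Within the knockout, VPA again gave no call (0 of 46, against 0.0556% of all genes), with 9 Wnt genes, or 19.6%, at an unadjusted p under 0.05 against 14.9%. Fzd4 (0.37 ± 0.11), Wnt4 (0.30 ± 0.09) and Gsk3b (-0.21 ± 0.06) each had an edgeR adjusted p of 0.14, and Dvl1 (0.25 ± 0.08) had 0.165. The exposed libraries were all above the unexposed for 7 Wnt genes, or 15.2% (9.88% of all genes): Fzd4, Wnt4, Dvl1, Wnt7b, Wnt10a, Wnt6 and Wnt9a. They were all below for 4, or 8.7% (10.3%): Gsk3b, Fzd3, Wnt8b and Dkk3. Fzd4 was in both genotypes among the genes whose exposed libraries were all higher.

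Gsk3b, the kinase that marks β-catenin for destruction, stood at 115, 114 and 118 CPM in WT, 118, 117 and 122 in htr, 117, 120 and 110 in WT_V and 101, 111 and 97.4 in htr_V. The htr_V libraries were below all htr libraries, whereas WT_V and WT overlapped. The difference between the VPA effects of the genotypes, their interaction, was -0.21 ± 0.09 on the log2 scale for Gsk3b and did not pass (edgeR adjusted p = 0.833).

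The interaction gave no call among the Wnt genes (0 of 46) or among all genes (0.0%), and 3 Wnt genes, or 6.52%, had an unadjusted p under 0.05, against 5.97% of all genes. Besides Gsk3b these were Sfrp5 and Dkk3. Sfrp5, a secreted Frizzled-related protein, stood at 2.37, 3.09 and 4.91 CPM in WT, 3.34, 2.07 and 1.67 in htr, 2.03, 2.25 and 2.45 in WT_V and 3.30, 2.49 and 4.05 in htr_V. It ran lower after VPA in wildtype and higher after VPA in knockout, with overlap in both, and the interaction was 1.09 ± 0.39 (unadjusted p = 0.00985, edgeR adjusted p = 0.833). Dkk3 stood at 267, 293 and 262 CPM in WT, 303, 281 and 285 in htr, 299, 293 and 293 in WT_V and 267, 276 and 262 in htr_V, with an interaction of -0.22 ± 0.10 (adjusted p = 0.833). For Fzd4 the interaction was 0.00 ± 0.16 (adjusted p = 1.0) and for Dvl2 -0.03 ± 0.15 (adjusted p = 0.989).

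The comparisons of VPA in wildtype and in knockout share no library. The sign of the difference was the same in both for 34 of 46 Wnt genes, or 73.9%, of which 27 were higher and 7 lower after VPA, and for 62.7% of all tested genes. Medians over the 46 Wnt genes were 0.06 in wildtype and 0.12 in knockout, against 0.01 over all genes in each. The wildtype median was 0.02 without WT replicate 3, 0.03 without WT replicate 2 and 0.03 without WT_V replicate 3, and the knockout median was 0.08 without htr replicate 1. The count above 0 was 32 in wildtype and 34 in knockout, 26 and 31 without both libraries lacking Xist, and as low as 28 in knockout without htr_V replicate 1.

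**Figure D4:**
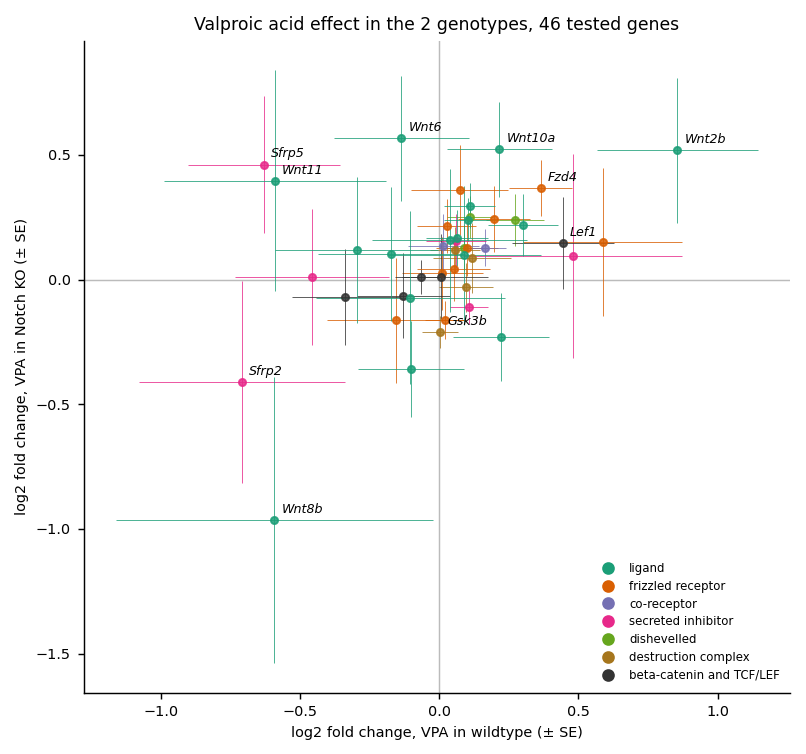
Log2 fold change with VPA in wildtype (horizontal) against that in knockout (vertical) for the 46 tested Wnt genes, with lines of 1 SE in each direction and colours by role. Points of 34 genes lie in the quadrants of equal sign, Fzd4 at 0.36 and 0.37, while Sfrp5 lies below 0 in wildtype and above 0 in knockout.

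Loss of Notch on its own moved no Wnt gene past the test. Without VPA 0 of 46 passed, against 0.0389% of all tested genes, and 1 of 46 (2.17%) had an unadjusted p under 0.05, against 3.13%. That gene was Wnt11, a ligand of the β-catenin-independent branch, at 0.724, 0.552 and 1.39 CPM in WT and 0.518, 0.405 and 0.478 in htr, all below wildtype. Its log2 fold change was -0.94 ± 0.42 (SE; edgeR adjusted p = 1.0), and -0.46 without WT replicate 3, the highest library. Wnt11 was the 1 Wnt gene whose knockout libraries were all below wildtype, or 2.17% (3.81% of all genes), and Lef1 the 1 whose libraries were all above, or 2.17% (3.58%), though htr replicate 1 and WT replicate 3 both read 3.39 CPM for Lef1.

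After VPA 0 of 46 differed between knockout and wildtype, against 0.05% of all genes, and 3 of 46 (6.52%) had an unadjusted p under 0.05, against 7.44%. Fzd3, a receptor known for guiding axons through planar polarity signalling, stood at 61.1, 62.1 and 53.1 CPM in WT_V and 48.2, 50.7 and 50.1 in htr_V, all lower in the knockout. Its log2 fold change was -0.24 ± 0.08 (SE; edgeR adjusted p = 0.419). Without VPA it was at 61.6, 55.7 and 56.4 CPM in WT and 55.6, 59.5 and 51.8 in htr, which overlapped. The other 2 were Gsk3b (-0.17 ± 0.06, adjusted p = 0.545) and Sfrp1 (0.23 ± 0.11, adjusted p = 0.643). Knockout libraries were all above wildtype for 3 Wnt genes, or 6.52% (6.96% of all genes), namely Sfrp5, Wnt4 and Fzd7. They were all below for 2, or 4.35% (6.23%), namely Fzd3 and Dkk3.

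Averaged over treatments, knockout gave 0 of 46 calls, against 0.05% of all genes, and 2 of 46 (4.35%) at an unadjusted p under 0.05, against 4.42%. These were Fzd3 (-0.15 ± 0.05, edgeR adjusted p = 0.979) and Sfrp1 (0.18 ± 0.08, adjusted p = 1.0). Sfrp1, which binds Wnts outside the cell, stood at 16.6, 14.6 and 14.4 CPM in WT, 15.5, 17.1 and 17.6 in htr, 14.7, 15.1 and 17.8 in WT_V and 20.9, 17.4 and 17.6 in htr_V, with overlap within each treatment. The count above 0 was 23 of 46 and the median log2 fold change 0.00. DESeq2's Wald test and limma-voom likewise called 0 Wnt genes in both knockout comparisons, in their average, in the interaction and in VPA within either genotype. Axin2 had a log2 fold change of 0.00 with knockout on average.

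Other genes of the pathway were read from a list of 83, of which 80 were tested: ligand secretion, other co-receptors, R-spondins and their receptors, other inhibitors, further destruction complex genes, nuclear cofactors, planar polarity and calcium branch genes, and known targets. In the averaged VPA comparison 1 of 80 rose and 1 of 80 fell, against 2.12% and 3.87% of all tested genes. At the adjusted threshold the list was thus not called more often than genes at large. An unadjusted edgeR p under 0.05 was reached by 27 of the 80, against 21.8% of all genes. Of the 80, 52 were above 0 and 28 below, against 52.4% of all genes above 0. The median log2 fold change was 0.03, against 0.01 over all genes. In the averaged knockout comparison 0 of 80 passed, against 0.05% of all genes. There 35 were above 0 and 45 below, against 49.8% of all genes above 0. None of 11 targets tested passed in either.

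The gene that fell with VPA was Tle4 (ENSMUSG00000024642), a Groucho corepressor that binds TCF/LEF factors in the absence of β-catenin. Tle4 stood at 49.6, 51.3 and 48.9 CPM in WT, 52.2, 45.5 and 46.1 in htr, 44.9, 43.8 and 41.9 in WT_V and 39.2, 37.7 and 40.8 in htr_V. Every exposed library was below every unexposed one. The averaged log2 fold change was -0.24 ± 0.05 (SE), 1.18-fold lower, with an edgeR adjusted p of 0.00839, and -0.25 with an adjusted p of 0.036 without both libraries lacking Xist. Striatal markers were also lower on average: 7 of 12 passed lower, against 3.87% of all tested genes, and 12 of 12 were below 0. Their summed level was 1980 to 2080 CPM in WT, 1510 to 2280 in htr, 1260 to 1420 in WT_V and 1370 to 1660 in htr_V. By genotype their median log2 fold change was -0.67 in wildtype (6 past the test) and -0.27 in knockout (0 past it). Tle4 was at -0.29 in knockout. Olfactory bulb markers were lower too, 10 of 10 tested below 0 (median -1.10) with 2 past the test. Cortical markers were mostly above 0, 7 of 10 (median 0.11), with 2 past the test lower and 1 higher. The part of regional content in the fall of Tle4 was not tested.

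The gene that rose was Vangl2, a core planar polarity protein, at 10.4, 10.3 and 12.1 CPM in WT, 10.4, 9.51 and 7.77 in htr, 13.9, 12.6 and 12.7 in WT_V and 12.6, 10.2 and 12.1 in htr_V. The exposed libraries were all above the unexposed in wildtype and overlapped them in knockout. The averaged log2 fold change was 0.29 ± 0.09 (SE; edgeR adjusted p = 0.0492), and 0.28 with an adjusted p of 0.155 without both libraries lacking Xist. Vangl2 passed in 2 of the 12 fits that left out 1 library. Celsr2, another planar polarity gene, stood at 121, 113 and 105 CPM in WT and 135, 141 and 133 in WT_V, all higher after VPA, with a log2 fold change of 0.27 ± 0.07 in wildtype (adjusted p = 0.0735). In knockout Celsr2 stood at 114, 121 and 101 CPM without and 113, 113 and 124 CPM with VPA, which overlapped.

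In the same wildtype comparison Shisa2, which retains Frizzled in the endoplasmic reticulum, was at -0.53 ± 0.17 (edgeR adjusted p = 0.13). In knockout, VPA left Tle4 at -0.29 ± 0.07 (adjusted p = 0.0854) and Mapk8, the kinase JNK of the planar polarity branch, at -0.26 ± 0.08 (adjusted p = 0.129). For the interaction the smallest p-values were those of Tspan12, a partner of Fzd4 (0.36 ± 0.14, adjusted p = 0.833), and Prickle1 (-0.24 ± 0.10, adjusted p = 0.833). For knockout after VPA they were those of Celsr2 (-0.23 ± 0.07, adjusted p = 0.453) and Prickle1 (-0.20 ± 0.07, adjusted p = 0.515). For knockout on average they were those of Btrc, the ubiquitin ligase subunit that recognises β-catenin (-0.14 ± 0.05), and the coactivator Bcl9 (-0.14 ± 0.06), each with an adjusted p of 1.0.

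These comparisons were in general more precise for genes at higher levels, with exceptions. Apc had the highest mean, 478 CPM, and an SE of 0.10 in the averaged knockout comparison. That was the largest SE there among Wnt genes at 10 CPM or more. For the 21 tested Wnt genes at 10 CPM or more the median SE of a log2 fold change was 0.07 in the averaged VPA comparison and 0.10 within a genotype, and for the 25 below 10 CPM it was 0.19 and 0.26 to 0.27. The range over the 12 libraries on the log2 CPM scale was widest for Wnt8b, at 2.58, and had a median of 0.77 over the 46 Wnt genes against 0.55 over all tested genes.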

How the data were processed

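The deposited file is a table of raw counts per Ensembl gene, 56748 genes by 12 libraries, made by the authors with no normalisation. Per the labels' protocols, total RNA was depleted of ribosomal RNA and made into libraries with an NEBNext Ultra kit. Per the submitters' processing notes, HISAT2 and GRCm39 were used. Not given in the sources used here were the counting program, the annotation and the strand setting. Symbols, biotypes and exon lengths came from GENCODE on the earlier build GRCm38, which named 52125 identifiers holding 99.53% of counts, so no positions are given from the counts.

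Genes were filtered with filterByExpr (17995 kept) and scaled by TMM (factors 0.93 to 1.02). A mean per group was fitted over all 12 libraries with edgeR 4.0.16 (robust quasi-likelihood, R 4.3.3; common biological coefficient of variation 0.09), 7 contrasts were tested two-sidedly, and p-values were adjusted by Benjamini-Hochberg over all tested genes at 0.05. CPM per kb divides by the summed length of all annotated exons of a gene. The length of the transcripts expressed was not measured, so the order of genes per kb is uncertain to that extent. The 95% intervals use the fitted SE and its degrees of freedom. The code was tested on simulated data. Promoter windows were read from RefSeq's table on GRCm38.p6.

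Members, lists, tests and alternatives were chosen with earlier results of these data known. Named with values in every library or by range were Axin2, Lef1, Tcf7, Tcf7l1, Tcf7l2, Ctnnb1, Lrp5, Lrp6, each Wnt gene past a test, the 4 smallest unadjusted p-values under 0.05 in each contrast and, of the other pathway genes, those past a test and the 2 smallest. Within groups, all 12 pairs of libraries differed by more than sampling noise (chi-square per gene at least 4.74); pairs across groups were not compared. Alternatives were other scaling, filters and tests (limma 3.58.1, DESeq2 1.42.0), only the libraries compared, a replicate block, mitochondrial genes left out, a sex term, and libraries left out.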

Additional observations from a re-analysis of the deposited data

How the results depend on the processing

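The count of 3 Wnt genes called in the averaged VPA comparison was 1 with limma-voom and 1 without both libraries lacking Xist (Fzd4 in each), and 0 with a sex term. With 1 library left out it ran from 1 to 5. It was 1 without htr replicate 1 or 3, WT_V replicate 1 or 3, or htr_V replicate 1 or 3, and 5 without WT replicate 1; Fzd4 passed in all 12 of these fits, with a log2 fold change of 0.32 to 0.43. In the 6 other comparisons the count was 0 under every alternative run.

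Whether the replicate numbers pair the libraries was not settled. Deviations of same-numbered libraries correlated at -0.06 to 0.12 (median 0.012), and those of differently numbered libraries at -0.123 to 0.112 (median -0.004). Of the same-numbered pairs 1 of 18 was over 0.1, and of the others 1 of 36. Of the 12 libraries, 7 correlated best with their own number. How many would do so if the numbers carried no pairing was not computed, so pairing was neither shown nor excluded. With the replicate block 1 Wnt gene was called in the averaged VPA comparison (Fzd4) and 0 in the others.

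Over 44 results for named genes and 22 alternatives, 874 of 941 values kept their direction and side of the threshold, 41 lost the call, 6 gained it and 20 reversed, all 20 in comparisons where the gene had not passed. Most of the 941 values belonged to results that had not passed and so had no call to lose. Those that could lose it were the averaged VPA results of Fzd4, Dvl2, Wnt2b, Tle4 and Vangl2. With 1 library left out, Fzd4 and Tle4 passed in 12 of 12 fits, Dvl2 and Wnt2b in 4 each and Vangl2 in 2. Under the 9 other settings Tle4 passed in 9, Fzd4 in 8, Dvl2 and Wnt2b in 5 each and Vangl2 in 3. With 1 library left out, the averaged VPA value of Axin2 ran from -0.0083 to 0.0675 and that of Tcf7l1 from -0.0253 to 0.0804. The interaction of Dvl2 then ran from -0.1075 to 0.0448 and that of Fzd4 from -0.1174 to 0.0873. The interaction of Fzd4 was -0.0015 with DESeq2 size factors, -0.0048 with no filter and -0.0015 with DESeq2's Wald test. The averaged VPA value of Lrp5 was -0.0482 with a sex term and -0.0506 without both libraries lacking Xist. The cause was not tested.

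Counts over all genes moved more. With VPA on average 1078 passed, 172 with a sex term, 298 without both libraries lacking Xist and 426 to 1193 with 1 library left out. In wildtype 161 passed, 40 to 512 under the other settings and 14 to 225 with 1 left out. In knockout 10 passed, 2 to 391 and 2 to 162. Knockout without VPA gave 7, 6 to 15 and 6 to 9. Knockout after VPA gave 9, 8 to 60 and 7 to 86, the 86 without WT_V replicate 3. Knockout on average gave 9, 7 to 46 and 7 to 19, and the interaction gave 0 to 5 over all settings. At this depth 5 of the 51 Wnt genes had too few counts to test.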
